A study of Rattus norvegicus with 12 samples.

Results

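Transcripts of the MHC class II molecules and their invariant chain, Cd74, RT1-Ba, RT1-Bb and RT1-Da, were followed in CD4+ T cells of Lewis rats that recognise β-synuclein. They are 4 of the 32754 gene rows of the count files, chosen by their Ensembl identifiers (ENSRNOG00000018735, ENSRNOG00000000451, ENSRNOG00000032708 and ENSRNOG00000032844, in that order). The choice used no threshold on their levels. RNA was sequenced in 12 libraries from cells that were sorted after intravenous transfer, with 3 libraries in each of 4 groups, all of strain LEW/Crl. The groups were blood cells of genotype wt (wild-type blood), and cells of genotype b-syn TCR Tg, which carry a transgenic T cell receptor against the neuronal protein β-synuclein, from Blood, from Meninges Brain and from Brain parenchyma (transgenic blood, meninges and parenchyma). The series text places all sorts on day 3, but the tissue code in the titles ends in 4 for the 3 parenchyma libraries and in 3 for the other 9. If that digit marks a day, tissue and day cannot be told apart in comparisons with the parenchyma. The labels and series text name no promoter of the transgene, no age, no sort markers and no animal behind each replicate, so the p-values below measure only the spread between libraries, which may be technical.

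MHC class II molecules are pairs of an α and a β chain that display peptides to CD4+ T cells. In the rat, RT1-Ba and RT1-Bb encode the α and β chains of RT1.B, the counterpart of human HLA-DQ, and RT1-Da encodes the α chain of RT1.D, the counterpart of HLA-DR. Cd74 encodes the invariant chain, which occupies the peptide groove of newly made class II molecules and guides them to the endosome. Macrophages, dendritic cells and B cells are the usual sources of these transcripts, and activated rat T cells also make class II molecules, so that either cell could have supplied the reads. The files pair no identifier with a gene name, and the marker lists for myeloid cells, B cells and T cells could not be read. The labelled cell type was therefore not checked against its markers.

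Class II genes share a promoter module of X and Y boxes, through which the coactivator CIITA acts. The bases before the start of the 3 chain genes are shown, since each holds a match to a core named below. Cd74 moved with these genes in blood, but its bases held no match and are not printed. Whether the matches have a part in that movement was not tested. Each line gives 110 bases, 5′ to 3′ in the direction of the gene, that end just before the outermost gene start in RefSeq (build GRCr8, of the BN strain). Capitals mark the Y box core TGATTGG, the X box core GCAACNG and, in RT1-Ba, the cyclic AMP response element core GACGTCA, which matches there on both strands, the matches overlapping in all but their outer bases. The match on the opposite strand abuts the X box core, so that all are printed as 1 run of capitals.
RT1-Ba, chr20:4576947-4577056, plus strand: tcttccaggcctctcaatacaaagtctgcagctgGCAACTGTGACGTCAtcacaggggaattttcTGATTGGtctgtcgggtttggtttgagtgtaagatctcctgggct
RT1-Bb, chr20:4604119-4604228, minus strand: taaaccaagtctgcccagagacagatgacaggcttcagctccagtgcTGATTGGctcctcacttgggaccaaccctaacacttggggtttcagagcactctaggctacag
RT1-Da, chr20:4515283-4515392, plus strand: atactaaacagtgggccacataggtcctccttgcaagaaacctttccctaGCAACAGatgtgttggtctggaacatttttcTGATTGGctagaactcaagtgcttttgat

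The Y box core was found in all 3 chain promoters and, over 250 bases on either strand, in 6.42% of 33469 RefSeq promoters. The X box core was found in RT1-Ba and RT1-Da, with 24 bases between it and the Y box core in both, and in 9.78% of promoters. GACGTCA was found in RT1-Ba and in 2.80% of promoters. No exact match to these cores occurred in the 250 bases listed for Cd74, which lies on chromosome 18, away from the class II genes on chromosome 20. Only exact matches were sought, so a box with other letters would be missed. The lack of a match in Cd74, or of an X box core in RT1-Bb, does not show that the box is absent. The motifs were chosen with these promoters in view, and a match is a description of the letters only. The Lewis rat carries another MHC haplotype than the BN reference, so that reads of its RT1 genes may map less completely. Such a loss would touch levels of different genes unequally, and its size was not tested.

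The 12 libraries held 16643832 to 38601400 counts. The 4 genes had between 795 and 84963 counts per library, and the widest exact binomial 95% interval of a level was ± 7.02%, which covers counting error only. Levels are given in counts per 1000000 of the file total (CPM), which are comparable for 1 gene across libraries and not between genes, since gene lengths were not used. In bulk RNA, a change in the number of cells of a type and a change in RNA per cell cannot be told apart. The parenchymal libraries were the most uneven. Their summed level of the 4 transcripts was 1631, 957 and 5335 CPM in replicates 1, 2 and 3, against 523 to 1206 CPM in the meninges, 682 to 971 CPM in transgenic blood and 348 to 469 CPM in wild-type blood.

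**Figure D1:**
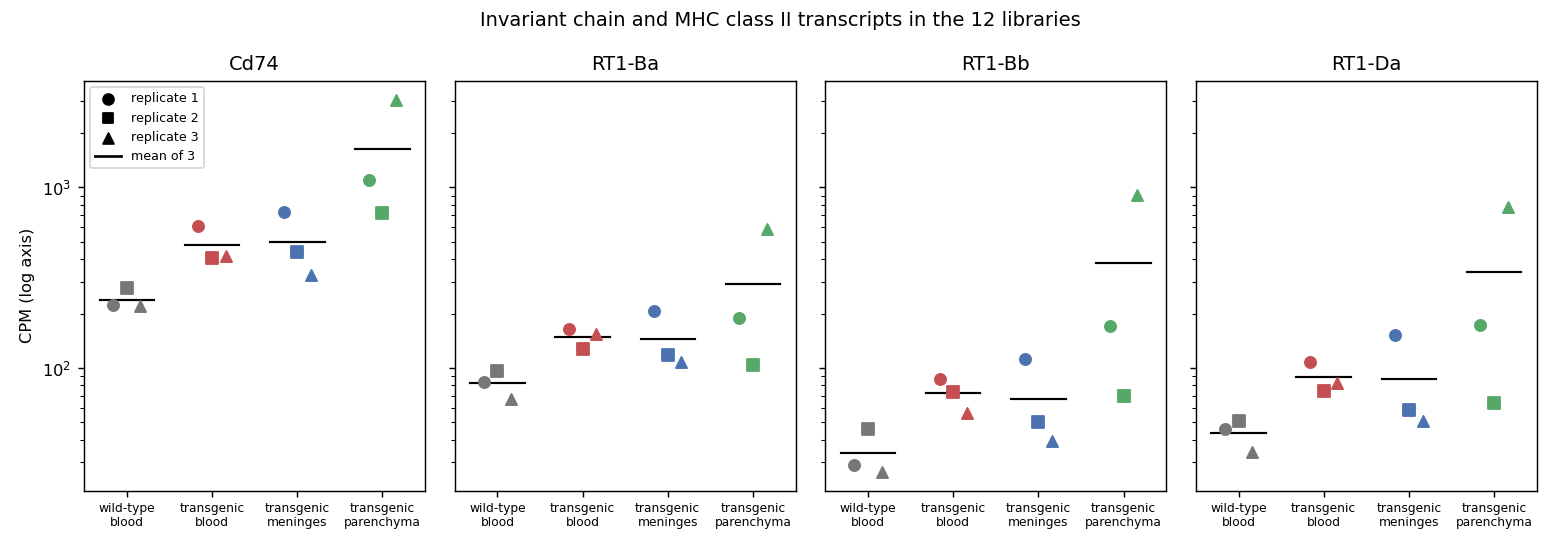
Levels of the 4 transcripts in CPM (log axis) in each library, by group, with a bar at the mean of 3 libraries. Every transgenic blood library lies above every wild-type blood library for each transcript, and parenchyma replicate 3 is the highest library in each panel.

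In blood, all 4 transcripts were about 2-fold higher in transgenic than in wild-type cells. This comparison asked how the genotypes differ in the 1 tissue where both were sequenced. Cd74, the invariant chain, stood at 222, 276 and 220 CPM in wild-type replicates 1, 2 and 3 and at 611, 407 and 416 CPM in the transgenic replicates. The groups did not overlap, with means of 239 ± 32.0 and 478 ± 115 CPM (SD, n = 3). The log2 fold change was 0.99 (SE 0.19, adjusted p = 0.00528 in edgeR's quasi-likelihood test with Benjamini-Hochberg adjustment).

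RT1-Ba, the α chain of RT1.B, stood at 83.5, 95.8 and 67.2 CPM in wild-type and at 165, 127 and 154 CPM in transgenic blood. All transgenic values were above all wild-type values, and the log2 fold change was 0.84 (SE 0.18, edgeR adjusted p = 0.00780). Its partner RT1-Bb, the β chain, stood at 29.1, 46.2 and 26.5 CPM against 86.8, 73.8 and 56.1 CPM, again without overlap. It had the largest of the 4 log2 fold changes, 1.07 (SE 0.24, edgeR adjusted p = 0.00959). RT1-Da, the α chain of RT1.D, stood at 45.9, 50.9 and 34.3 CPM against 108, 74.8 and 82.7 CPM. Its groups did not overlap either, and its log2 fold change was 1.01 (SE 0.20, edgeR adjusted p = 0.00602).

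Thus 4 of 4 genes were called higher in transgenic blood, where 13.1% of the 11618 genes tested were called higher. The 4 genes did not overlap between genotypes in that direction, which held for 23.6% of genes. Their median log2 fold change was 1.00, against -0.0053 over all genes tested. The log2 fold change of RT1-Ba, the smallest, exceeded that of 91.9% of genes, and that of RT1-Bb, the largest, 94.0%. All 4 calls held when any 1 of the 6 libraries was left out, with adjusted p-values from 0.00278 to 0.0405. The wild-type libraries were deeper than the transgenic ones, and 2 library kits are named in the labels without saying which library each made. A kit that differed between genotypes cannot be told apart from the genotype. The same holds for a kit that differed between tissues, in the tissue comparisons and in the ratios within a library below.

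Between the meninges and blood of transgenic cells, none of the 4 genes was called in either direction. Cd74 was at 734, 441 and 325 CPM in meninges replicates 1, 2 and 3, a range that encloses that of transgenic blood. RT1-Ba was at 208, 119 and 107 CPM, RT1-Bb at 112, 50.1 and 39.3 CPM, and RT1-Da at 151, 58.6 and 50.7 CPM. Replicate 1 was above and replicate 3 below every transgenic blood library for all 4 genes. The log2 fold changes were 0.12 (SE 0.50) for Cd74, 0.015 (SE 0.54) for RT1-Ba, -0.043 (SE 0.78) for RT1-Bb and 0.028 (SE 0.76) for RT1-Da. By edgeR 0 of the 4 genes were called, where 6.51% of 11809 genes were. Libraries of the groups overlapped for all 4, while 32.1% of genes did not overlap. Of the 4, 0 had an unadjusted p under 0.05, and DESeq2 and limma-voom also called 0. These standard errors come from a fit that also holds the uneven parenchyma libraries. In an edgeR fit of only the 2 groups they were 0.30, 0.25, 0.36 and 0.39 in the same order, again without a call. Either set leaves room for changes in either direction, and the result does not show that the levels are equal.

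In the parenchyma, Cd74 was higher than in blood in every library, while the 3 class II chains depended on the library. This comparison, and that with the meninges, asked how T cells inside the brain tissue differ from those outside it, and both comparisons with blood share the blood libraries. Cd74 was at 1099, 719 and 3060 CPM in parenchyma replicates 1, 2 and 3, all above the highest transgenic blood library at 611 CPM. Its mean was 1626 ± 1257 CPM against 478 ± 115 CPM (SD, n = 3), and its log2 fold change was 1.76 (SE 0.52, edgeR adjusted p = 0.0249). Without replicate 3 the log2 fold change was 0.90 (SE 0.34, adjusted p = 0.0690).

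RT1-Ba was at 188, 104 and 587 CPM in the parenchyma. Replicate 2 lay below every transgenic blood library and replicate 3 far above them. Its log2 fold change was 0.98 (SE 0.54, edgeR adjusted p = 0.191), and -0.054 without replicate 3. RT1-Bb was at 171, 69.8 and 906 CPM. Replicates 1 and 3 were above the blood libraries, and replicate 2 was within their range. The edgeR test called it higher, with a log2 fold change of 2.41 (SE 0.81, adjusted p = 0.0440). Without replicate 3 the log2 fold change was 0.72 (SE 0.46, adjusted p = 0.270). RT1-Da was at 173, 64.2 and 781 CPM, with replicate 2 again below every blood library. Its log2 fold change was 1.94 (SE 0.79, edgeR adjusted p = 0.0825), and 0.39 without replicate 3.

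By edgeR, 2 of 4 genes were called higher in the parenchyma than in blood, where 18.7% of 11809 genes were called higher. DESeq2 also called 2 and limma-voom called 1, without RT1-Bb (adjusted p = 0.143 in limma-voom). RT1-Bb also missed the threshold in an edgeR fit of only these groups (adjusted p = 0.0668). Only Cd74 did not overlap, and 24.2% of genes were higher in the parenchyma without overlap. The median log2 fold change was 1.85, against 0.02 over all genes tested. The number called was 0 without parenchyma replicate 3 and 4 without replicate 2, and it was also 0 without blood replicate 2 or blood replicate 3. Without either of those blood libraries the log2 fold changes of Cd74 were 1.62 and 1.66, with adjusted p-values of 0.0869 and 0.0856.

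**Figure D2:**
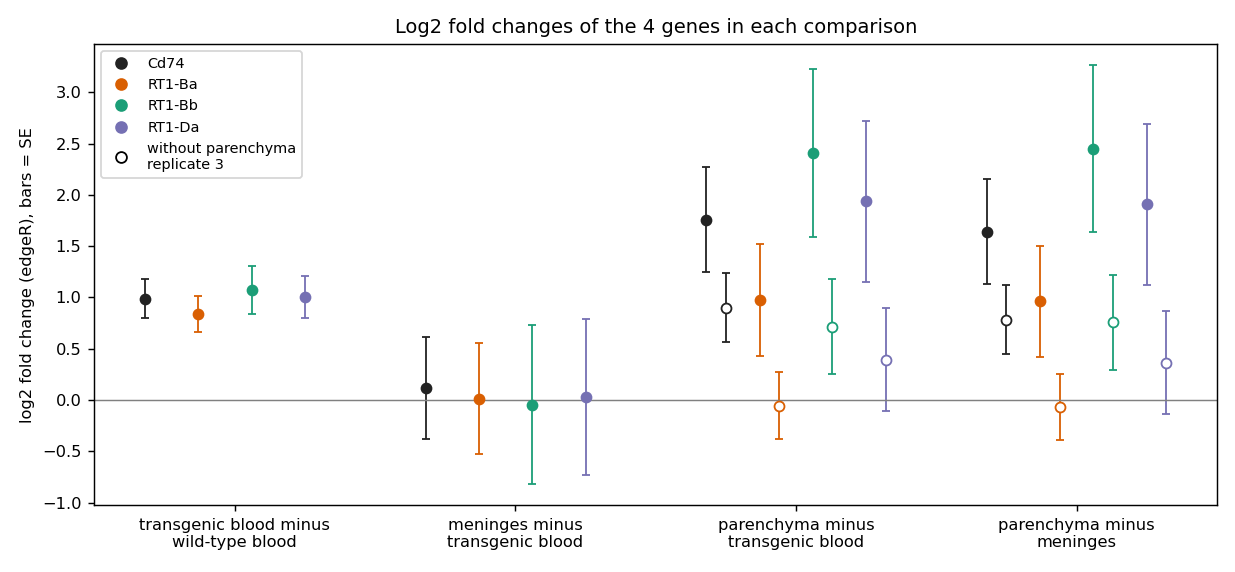
Log2 fold changes from edgeR, with SE bars, of the 4 transcripts in each comparison, with all libraries (filled) and without parenchyma replicate 3 (open, tissue comparisons that include the parenchyma). Without that library the value of Cd74 against blood goes from 1.76 to 0.90, and that of RT1-Ba from 0.98 to -0.054.

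Against the meninges, the same parenchymal values gave log2 fold changes of 1.64 (SE 0.51) for Cd74, 0.96 (SE 0.54) for RT1-Ba, 2.45 (SE 0.82) for RT1-Bb and 1.91 (SE 0.78) for RT1-Da. By edgeR, 0 of 4 genes were called higher, where 8% of genes were, with adjusted p-values of 0.0584, 0.267, 0.0715 and 0.132 in the same order. Of the 4, 3 had an unadjusted p under 0.05. DESeq2 called 2 of them (Cd74 and RT1-Bb) and limma-voom called 0. Libraries of the groups overlapped for all 4 genes, while 21.1% of genes were higher in the parenchyma without overlap. Cd74 overlapped narrowly, since meninges replicate 1 at 734 CPM lay above parenchyma replicate 2 at 719 CPM. Without parenchyma replicate 2 edgeR called 3 genes, and without replicate 3 it called 0, with a log2 fold change of 0.78 for Cd74 and -0.068 for RT1-Ba. With both parenchyma replicate 3 and meninges replicate 1 left out, a setting chosen after the data were seen, Cd74 was called (log2 fold change 1.19, edgeR adjusted p = 0.0322).

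The order of the group means was wild-type blood, transgenic blood, meninges, parenchyma for Cd74. For the 3 chains the mean CPM of the meninges came just below that of transgenic blood. That order depends on the scaling: with TMM-scaled totals the meninges were above transgenic blood for RT1-Ba (149 against 147 CPM) and RT1-Da (89.8 against 87.9 CPM). Of the consecutive steps in the order of Cd74, only that from wild-type to transgenic blood passed the test, as it did for the 3 chains. The wider step from transgenic blood to parenchyma passed for Cd74 and RT1-Bb and not for RT1-Ba or RT1-Da. Wild-type blood was not tested against the meninges, which differ in genotype and tissue. Replicates differed most in the parenchyma, where the SD of log2(CPM + 0.5) was 1.07 for Cd74, 1.27 for RT1-Ba, 1.87 for RT1-Bb and 1.81 for RT1-Da. The median over 8200 genes of at least 10 CPM was 0.18. Each of the 4 SDs was larger than that of at least 98.8% of these genes. In the meninges the SDs were 0.59, 0.51, 0.79 and 0.85, in the same order, against a median of 0.14. There they were larger than those of 98.6%, 97.8%, 99.3% and 99.5% of the genes. A spread that ranked high among all genes was thus not particular to the parenchyma. In transgenic blood they were 0.20 to 0.33, against a median of 0.16.

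Ratios between the transcripts within a library do not depend on its depth or scaling, and they showed another feature of the parenchyma. The count of Cd74 was 5.85, 6.94 and 5.21 times that of RT1-Ba in parenchyma replicates 1, 2 and 3. It was 3.70, 3.22 and 2.70 times in transgenic blood, 3.53, 3.72 and 3.03 times in the meninges and 2.66, 2.88 and 3.27 times in wild-type blood. All 3 parenchymal ratios were above all 9 others, including that of replicate 2, in which the 3 chains lay below their means in transgenic blood. Of 8199 genes set against RT1-Ba in the same way, 0.561% were higher in the parenchyma without overlap.

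The ratio between the chains of RT1.B was also lower in every parenchymal library than elsewhere, with nearest values of 1.49 and 1.71. The count of RT1-Ba, the α chain, was 1.10, 1.49 and 0.648 times that of RT1-Bb, the β chain, in the parenchyma, below the 9 other libraries, which lay between 1.71 and 2.87. Of all genes set against RT1-Bb, 4.87% were lower in the parenchyma without overlap. RT1-Bb stood at 0.991, 1.09 and 1.16 times RT1-Da in the parenchyma and at 0.634 to 0.987 times elsewhere, a gap too narrow to be read. Of all genes set against RT1-Da, 0.354% were higher without overlap. The other 3 of the 6 pairs overlapped between the parenchyma and the other 9 libraries. The ratios of Cd74 to RT1-Bb and to RT1-Da overlapped all groups, at 3.38 to 10.3 and 3.92 to 11.2 in the parenchyma, with parenchyma replicate 3 the lowest in both. The ratios were not tested. For the parenchyma against 1 other group, 3 libraries against 3 cannot give an exact two-sided p below 0.10. That limit does not apply to all 9 other libraries together, which mix tissues and genotypes.

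**Figure D3:**
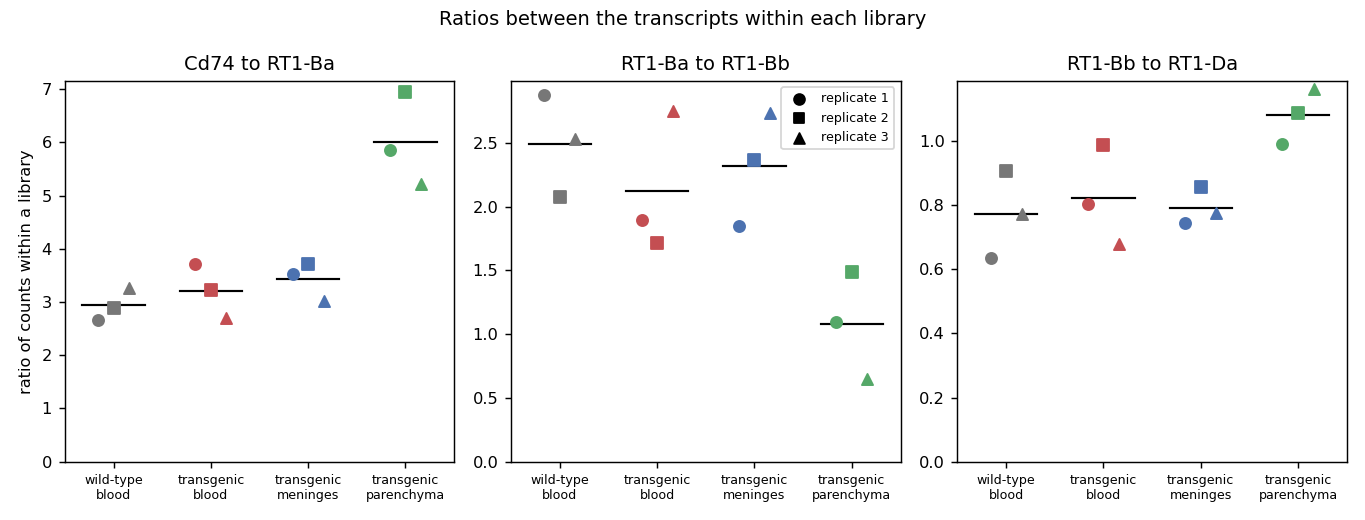
Ratios of counts within each library for 3 pairs of transcripts, by group, with a bar at the mean of 3 libraries. The parenchymal ratios of Cd74 to RT1-Ba lie between 5.21 and 6.94, above all other libraries, and those of RT1-Ba to RT1-Bb between 0.648 and 1.49, below them.

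The libraries were also described by genes that were near 0 in blood and present in the parenchyma. A set of 77 genes had no more than 3 counts in any transgenic blood library but averaged 5 CPM or more over the parenchyma, and 72 of them were highest in parenchyma replicate 3. Their summed level was 581, 181 and 3174 CPM in parenchyma replicates 1, 2 and 3. Because the genes were admitted by their parenchymal mean, which 1 high library can carry, the top place of replicate 3 is largely set by the choice and nothing is read from it. In the meninges, which did not enter this choice, the summed level was 111, 77.6 and 46.9 CPM in replicates 1, 2 and 3. The summed level of the 4 transcripts had the same order there, at 1206, 669 and 523 CPM. An order shared by 3 libraries can readily arise by chance, and nothing is read from it. In transgenic blood, where the choice fixed the summed level of the 77 genes near 0, it was 3.16 to 3.86 CPM. In wild-type blood it was 1.94 to 2.96 CPM. Both are near the floor, so no difference between genotypes is read from them. The identifiers of these genes are not paired with names, and their part in the results between tissues and between genotypes was not tested.

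**Figure D4:**
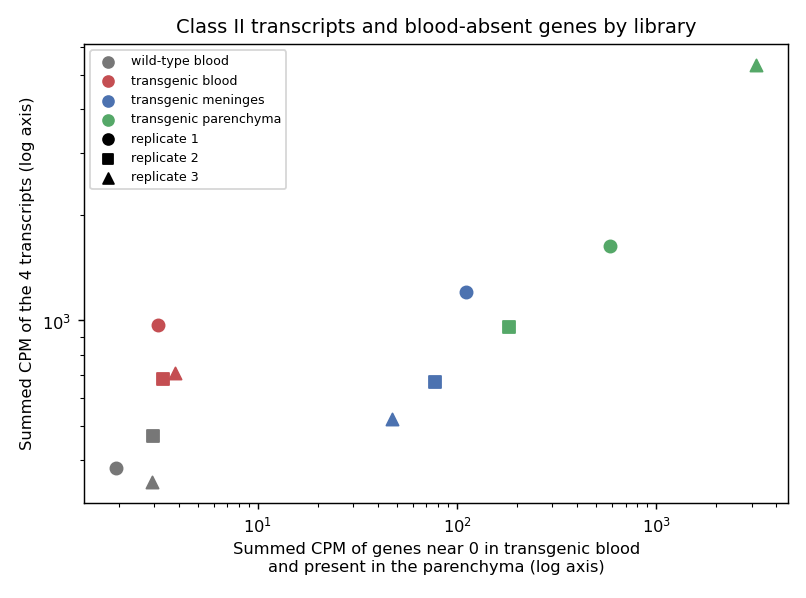
Summed CPM of the 4 transcripts (vertical log axis) against the summed CPM of the 77 genes near 0 in transgenic blood and present in the parenchyma (horizontal log axis), 1 point per library. The 3 meningeal libraries lie in the same order on both axes, from 523 to 1206 CPM of the 4 transcripts, which 3 libraries can readily do by chance. The place of the transgenic blood and parenchymal libraries on the horizontal axis is partly set by how the 77 genes were chosen.

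The pattern of each transcript over the 12 libraries was compared with those of 8199 other genes of at least 10 CPM, by the root mean square difference of log2(CPM + 0.5) after centring each gene on its own mean. ENSRNOG00000033215, a gene without a name in the files, was the most similar gene to Cd74 (0.28), RT1-Ba (0.25) and RT1-Da (0.24). For RT1-Bb it came second (0.38), after RT1-Da. The median gene differed from the 4 members by 0.83 to 1.34. ENSRNOG00000033215 stood at 45.5, 61.9 and 37.3 CPM in wild-type blood, 111, 87.1 and 89.9 CPM in transgenic blood, 126, 65.1 and 55.3 CPM in the meninges and 158, 78.4 and 528 CPM in the parenchyma. Like the 4 members, it was higher in every transgenic than in every wild-type blood library, which held for 23.6% of genes tested. It was picked for likeness over these same libraries, so this order is largely set by the choice and nothing is read from it.

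Among the members, RT1-Bb and RT1-Da were the closest pair, at a difference of 0.26, and each ranked first or second for the other. RT1-Ba and RT1-Bb, whose products form 1 molecule, were the least alike over the 12 libraries, at 0.60, and RT1-Bb ranked 167 among the genes most like RT1-Ba. In the other direction RT1-Ba ranked 13 among the genes most like RT1-Bb. The median gene differed by 0.83 from RT1-Ba and by 1.34 from RT1-Bb. The measure also grows when 1 gene varies more, as RT1-Bb did in the parenchyma (SD 1.87 against 1.27). Without parenchyma replicate 3, a setting chosen after the data were seen, ENSRNOG00000033215 remained the nearest gene of RT1-Ba (0.21) and RT1-Da (0.16) and became that of RT1-Bb (0.22). The nearest gene of Cd74 was then RT1-Bb (0.25), RT1-Ba fell to rank 109 for Cd74, and Cd74 and RT1-Ba were the least alike pair (0.42), just beyond RT1-Ba and RT1-Bb (0.41). These measures share the libraries and their grouping, and are descriptions of likeness only.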

How the data were processed

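The authors deposited 1 file of raw whole-number counts per gene for each of 12 libraries (32754 Ensembl rat identifiers, no other rows). Per the submitters' processing notes, the tools were R 3.4.2, DESeq2 1.14.1, featureCounts 1.5.0-p1, STAR 2.5, FastQC 0.11.5 and bcl2fastq 2.17.1.14, with build rn6. The notes give no settings, annotation or strand, and reads shared between near-identical RT1 genes or antisense partners could not be separated.

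Groups and replicate numbers came from the sample titles. Counts were tested two-sided with edgeR 4.0.16 in R 4.3.3 (filterByExpr with a minimum count of 10, TMM, quasi-likelihood F test, Benjamini-Hochberg over all genes tested, threshold 0.05). The fit of tissues used the 9 transgenic libraries and left 6 residual degrees of freedom; that of genotypes used the 6 blood libraries and left 4. The SE was taken as the log2 fold change divided by the square root of F. DESeq2 1.42.0 and limma 3.58.1 were alternatives. The procedure was tested on simulated data.

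The members, with their symbols, and the gene lists were chosen with earlier results of these data known. The rule named the 4 members whatever their result, other listed genes only where an identifier is paired with a symbol (0 lines of the reference held one), and at most 2 unnamed identifiers by likeness of pattern. The 4 members were matched by symbol to RefSeq (GRCr8) for sequences. By the correlation of deviations from the group means, same-numbered libraries went together in some pairs of groups and not in others. The main fits used no pairing.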

Additional observations from a re-analysis of the deposited data

How the results depend on the processing

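The genotype calls in blood kept their direction and their side of the threshold for all 4 genes under 7 other settings and 6 omissions of 1 library. The log2 fold changes in the omissions ran from 0.76 to 1.11 for Cd74, 0.69 to 0.97 for RT1-Ba, 0.90 to 1.37 for RT1-Bb and 0.82 to 1.13 for RT1-Da. The tissue results depended on single libraries, and the cause was not tested. With 1 library of a group left out, the 2 that remain set its spread together with the other groups.

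Meninges against blood stayed without a call throughout, and its sign was not stable. Omissions gave log2 fold changes of -0.30 to 0.36 for Cd74, -0.37 to 0.20 for RT1-Ba, -0.67 to 0.24 for RT1-Bb and -0.67 to 0.31 for RT1-Da. RT1-Ba and RT1-Da were -0.038 and -0.027 with no scaling factor and -0.040 and -0.14 in limma-voom, and RT1-Da was -0.0063 with the replicate block. Without parenchyma replicate 3 and meninges replicate 1 (chosen after the data were seen), Cd74 was -0.29, RT1-Ba -0.37 and RT1-Da -0.67.

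In parenchyma against blood, omissions gave 0.90 to 2.10 for Cd74, -0.054 to 1.37 for RT1-Ba, 0.72 to 2.89 for RT1-Bb and 0.39 to 2.41 for RT1-Da, with 0 to 4 genes called. RT1-Bb was no longer called in limma-voom (1.62), with the replicate block (1.93), in a fit of only the 2 groups (2.38) or without both libraries (0.71), where RT1-Ba was -0.059; each of these settings called 1 gene. In parenchyma against meninges, omissions gave 0.78 to 2.02 for Cd74, -0.068 to 1.35 for RT1-Ba, 0.76 to 3.03 for RT1-Bb and 0.37 to 2.57 for RT1-Da, with 0 to 3 genes called. Cd74 was called with no scaling factor (1.70), without a filter (1.58), by DESeq2 (1.64) and without both libraries (1.19), and RT1-Bb without a filter (2.38) and by DESeq2 (2.45), so that these settings called 1, 2, 2 and 1 genes.

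Same-numbered libraries deviated together in some pairs of groups and not in others (correlations over genes from -0.26 to 0.36). Libraries with different numbers reached 0.37. Between parenchyma and meninges the same-numbered correlations were -0.20, -0.029 and -0.26, while different-numbered libraries reached 0.32. The block therefore rests on the numbers alone. It moved the genes called from 769 to 674 in meninges against blood, from 4143 to 3671 in parenchyma against blood, from 1828 to 1407 between the brain compartments and from 3002 to 3126 between genotypes. Over all settings these counts ran from 346 to 1338, 3050 to 4464, 730 to 2410 and 1789 to 3487. With TMM-scaled totals, each group mean moved by less than 1 SD.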
